A study of Mus musculus with 10 samples.

Results

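A set of 10 genes of the Wnt pathway was followed across 10 RNA sequencing libraries of mouse lung tumours. The genes were Axin2, Lgr4, Lgr5, Notum, Nkd1, Wnt5a, Wnt7b, Porcn, Ctnnb1 and Tcf7, and they were chosen as the rows of the deposited count table that carry these symbols. Each symbol occurred once, so the set held 10 of the 39017 genes in the table. The libraries were made from polyadenylated RNA of the CD45- fraction of macrodissected tumours, taken 20 weeks and 1 day after initiation, with 5 libraries of KP control mice and 5 of KPG1 mice labelled Glut1-KO. Both groups were of the C57BL/6 strain, carried p53 Fl/Fl among other alleles, and received an adenovirus in which Cre is driven by the promoter of CC10, the secretory protein that marks club cells. The KPG1 mice carried Glut1 Fl/Fl in addition. The genotype label of the controls was heterozygous fl/wt, while the design text called them Glut1-WT. Cre was limited to cells in which this promoter is active, whereas the sorted fraction could hold any cell without CD45. All 5 controls were male, Glut1-KO 1, 2 and 3 were female and Glut1-KO 4 and 5 were male, so there was no female control. Totals ran from 35.3 to 49.8 M counts (M, mega) per library.

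Wnt proteins are secreted signals that need an added lipid to leave the cell and to bind their receptors. In the canonical branch, a Wnt signal stops the destruction complex from breaking down β-catenin, which then enters the nucleus and acts with factors of the TCF/LEF family on target genes, several of which encode feedback inhibitors of the pathway. In the lung, Wnt signals are known for roles in the maintenance of alveolar type 2 cells, and in lung adenocarcinoma for cells that make Wnt ligands beside cells that respond to them. The members were therefore taken in the order of ligands (Wnt5a, Wnt7b), the enzymes that add and remove the lipid (Porcn, Notum), the receptors of R-spondins (Lgr4, Lgr5), the intracellular and nuclear effectors (Ctnnb1, Tcf7) and the feedback targets (Axin2, Nkd1).

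Since TCF/LEF factors bind DNA beside target genes, promoter sequence was read for the members that RefSeq's promoter table holds (GRCm38.p6), which were 5 of 10, namely Axin2, Nkd1, Lgr4, Tcf7 and Ctnnb1. The 250 bases before each annotated start were searched on both strands for the TCF/LEF letters CTTTG followed by AA, AT, TA or TT, for the GC box GGGCGG, for CCAAT and for the TATA box TATAAA. These were held by 14.8%, 32.7%, 33.8% and 12.4% of 32851 windows of this length. The windows of these 5 members, of which Ctnnb1 and Tcf7 had 2 each, held 0 TCF/LEF matches. This says only that these letters were not within 250 bases before the starts. The start used for Nkd1 lies 6279 bases inside the gene as annotated by GENCODE, and those for Ctnnb1 4184 and 4362 bases inside. The sequence before the first base of Nkd1 and Ctnnb1 was thus not read. Axin2 and Lgr4 are shown because Axin2 is the classical target of the pathway and Lgr4 gave one of the larger group differences, and for both the window ends just before the first base of the gene. Capitals mark the 2 GC boxes of Axin2 (chr11:108920099-108920348, plus strand) and the 2 CCAAT matches of Lgr4 (chr2:109917397-109917646, plus strand).
Axin2: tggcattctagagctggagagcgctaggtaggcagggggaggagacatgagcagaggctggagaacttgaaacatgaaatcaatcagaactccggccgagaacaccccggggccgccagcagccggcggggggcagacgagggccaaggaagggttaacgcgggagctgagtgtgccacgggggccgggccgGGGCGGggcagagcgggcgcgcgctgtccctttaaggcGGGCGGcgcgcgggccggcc
Lgr4: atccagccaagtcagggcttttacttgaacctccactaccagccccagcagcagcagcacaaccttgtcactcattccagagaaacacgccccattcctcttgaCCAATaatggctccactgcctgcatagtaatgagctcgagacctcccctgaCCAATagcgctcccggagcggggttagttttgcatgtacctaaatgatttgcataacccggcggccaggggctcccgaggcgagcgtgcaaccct
The Axin2 window had a GC content of 69.2% and that of Lgr4 55.6%, against a median of 52.4% over all windows.

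The targeted gene was read first. Slc2a1, which encodes the glucose transporter Glut1, stood at 118, 86.7, 92.6, 103 and 73.2 CPM (counts per M, scaled between libraries) in controls 1 to 5 and at 60.3, 42.5, 34.6, 92.4 and 103 CPM in Glut1-KO 1 to 5. The 3 female Glut1-KO libraries lay below every control, whereas Glut1-KO 4 and 5 lay within the range of the controls. The labels were therefore kept as labels, and the comparisons of members and of named pathway genes are also given without Glut1-KO 4 and 5, as the female Glut1-KO libraries against all controls. Over all libraries the log2 fold change of Slc2a1 was -0.62 (SE 0.29, limma adjusted p = 0.658, 2-sided exact permutation p = 0.0952, n = 5 per group). With the female Glut1-KO libraries alone it was -1.07 (SE 0.21, limma adjusted p = 0.147), and among the male libraries alone 0.06 (SE 0.19, limma adjusted p = 0.94). These 2 comparisons share the 5 controls. Counts covered the whole gene, so the floxed part was not read on its own.

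The labelled tissue was checked against its markers. Summed levels of 6 alveolar type 2 genes ran from 23300 to 66200 CPM and those of 6 epithelial genes from 3310 to 8810 CPM over the libraries. Fibroblast genes summed to between 63.4 and 410 CPM and endothelial genes to between 97.4 and 501 CPM, so RNA of cells other than tumour cells was present. By group, endothelial genes summed to 97.4 to 360 CPM in controls and 152 to 501 CPM in libraries labelled Glut1-KO, with 7 of 7 genes higher on the mean. Club cell genes summed to 1690 to 9630 CPM and 924 to 6580 CPM (0 of 4 higher), and ciliated cell genes to 9.28 to 236 CPM and 12.6 to 48.4 CPM (0 of 5 higher). These ranges overlapped between the groups, and the part of these genes in the member differences was not tested. Ptprc, the gene of CD45, stood at 2.30 to 3.26 CPM in controls and at 5.05 to 10.1 CPM in libraries labelled Glut1-KO.

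Between the groups, 0 of the 10 members passed the test, with limma adjusted p-values from 0.449 to 0.985. This was also the count among all 15922 genes tested (0%), where the smallest adjusted p was 0.23. All 10 members passed the filter on low counts. By fitted log2 fold change 4 were higher and 6 lower in libraries labelled Glut1-KO, with a median of -0.06 beside -0.00492 over all genes tested. Unadjusted p-values under 0.05 were found for 2 of 10 members (20.0%), against 7.68% of all genes tested, and these were Wnt5a (higher, 3.66% of all genes in that direction) and Lgr4 (lower, 4.02%). This count of 2 was 1 when any of controls 1, 3 and 4 or Glut1-KO 2, 3 and 5 was left out. Beside it, 896 to 1678 of all genes tested had such p-values. The count was 3 without Glut1-KO 4 (1211 of 16158 genes in all). It was also 3 after libraries with the same number in their deposited names were summed (1238 of 17372). Among males it was 0 (1556 of 16762), in DESeq2 3 (1715 of 15922) and with the female Glut1-KO libraries alone 4 (2260 of 16430). The groups overlapped for all 10 members, whereas 1.85% of all genes tested did not overlap. In bulk libraries a difference in the number of cells of a type and a difference in RNA per cell cannot be told apart. Summed dissociation stress genes stood at 4860 to 5860 CPM in controls and 2760 to 5010 CPM in libraries labelled Glut1-KO, with 0 of 8 genes higher on the mean, and their part in the differences below was not tested. The edgeR quasi-likelihood test called 0 genes and the DESeq2 Wald test 215 (110 or 0.708% higher and 105 or 0.676% lower of 15538), of which 0 were members.

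**Figure D1:**
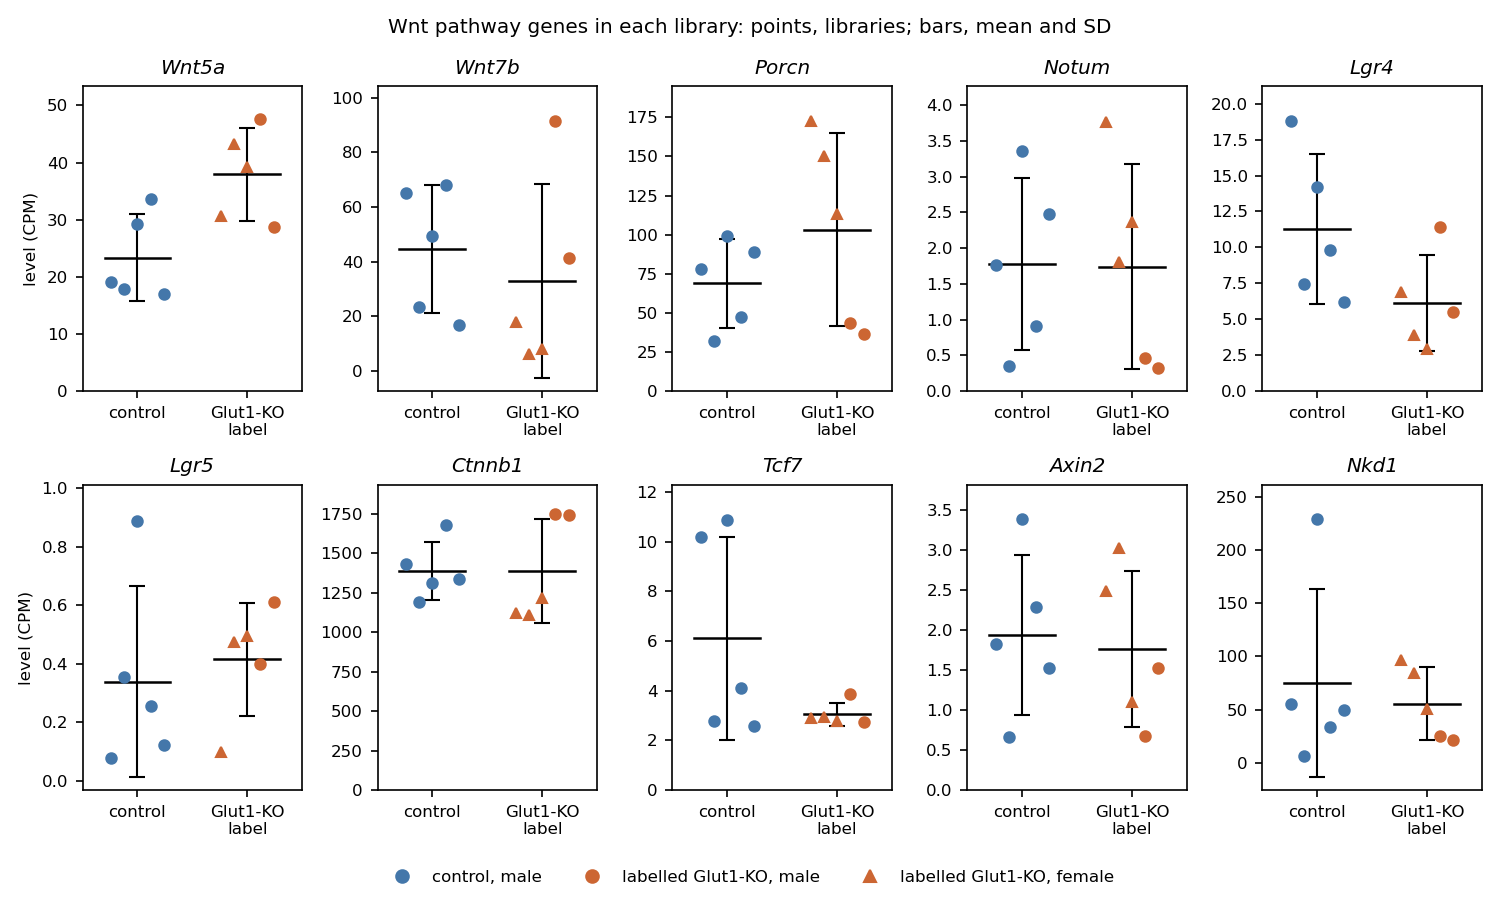
Levels of the 10 Wnt pathway genes in CPM (linear axis, 1 panel per gene) in 5 control libraries and 5 libraries labelled Glut1-KO. Points are libraries (circles male, triangles female), and bars give the mean and SD of each group. The groups overlap in all panels, and in the Porcn, Notum, Nkd1, Wnt7b and Ctnnb1 panels the 3 female and 2 male Glut1-KO libraries do not overlap with each other.

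Wnt5a, a ligand known mainly for signalling without β-catenin (ENSMUSG00000021994, chr14:28504750-28527448, plus strand), had the smallest p-value of the members. It stood at 19.1, 17.9, 29.3, 33.6 and 16.9 CPM in controls 1 to 5 and at 30.7, 43.2, 39.2, 47.7 and 28.8 CPM in Glut1-KO 1 to 5. Of the libraries labelled Glut1-KO, 3 (2, 3 and 4) lay above every control and the other two within the control range. The means were 23.4 ± 7.58 CPM and 37.9 ± 8.06 CPM (SD, n = 5 per group). On the log2 scale the fold change was 0.74 (SE 0.22, 95% interval 0.24 to 1.23, limma adjusted p = 0.449, 2-sided exact permutation p = 0.0397). It was 0.71 (SE 0.33, limma adjusted p = 0.551) among the males and 0.75 (SE 0.25, limma adjusted p = 0.272) for the female Glut1-KO libraries against all controls, 2 comparisons that use the same 5 controls. Of 8 leukocyte genes, 6 had a higher mean in libraries labelled Glut1-KO, but their summed level, which Lyz2 dominates, overlapped (973 to 11300 CPM in controls and 1960 to 7890 CPM in the other group). Lyz2, which alveolar type 2 cells also express, stood at 954 to 11300 CPM and 1920 to 7850 CPM. Ptprc did not overlap between the groups, as 0.798% of all genes tested did not in that direction, and did not pass the test (limma adjusted p = 0.23). No gene of the leukocyte list was at 0 in all libraries. Fibroblast genes, a usual source of Wnt5a in lung, summed to 93.9 to 370 CPM and 63.4 to 410 CPM. The part of these cells in the Wnt5a values was not tested.

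Wnt7b, a ligand of the lung epithelium (ENSMUSG00000022382, chr15:85535437-85582473, minus strand), varied more. Its levels were 65.2, 23.6, 49.6, 68.1 and 16.8 CPM in controls 1 to 5 and 17.8, 6.18, 8.15, 91.6 and 41.3 CPM in Glut1-KO 1 to 5. Within the group labelled Glut1-KO the 3 female libraries were lowest and the 2 males were higher, by 6.21-fold on the means, and Glut1-KO 4 held the highest level of all libraries. The log2 fold change over all libraries was -0.98 (SE 0.68, 95% interval -2.49 to 0.52, limma adjusted p = 0.762, 2-sided exact permutation p = 0.294). It was -1.99 (SE 0.64, limma adjusted p = 0.264) with the female Glut1-KO libraries alone, and the sign turned among the males (0.67, SE 0.60, limma adjusted p = 0.755).

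Wnt5a and Wnt7b were set among all 19 Wnt ligand genes per kb of exon, the scale on which genes of different length can be compared. Wnt7a averaged 14.0 CPM per kb over the 10 libraries, Wnt7b 7.93 and Wnt5a 3.92, and the other 16 ligand genes were each under 1 CPM per kb. These 3 ligands together made up between 84.6% and 96.6% of the summed ligand level of a library. Wnt7a came first in 8 libraries and Wnt7b in 2, which were control 1 and Glut1-KO 4. Wnt5a took 7.24% to 13.1% of the summed level in controls, 19.7% to 33.9% in the female and 11.8% to 14.1% in the male Glut1-KO libraries. The share of Wnt7b was 12.4% to 39.5% in controls, 7.36% to 18.2% in the female and 27.1% to 43.1% in the male Glut1-KO libraries. A share depends on the other ligands too, and Wnt7a stood at 33.5, 29.3 and 23.2 CPM in the 3 female Glut1-KO libraries and at 34.6 to 66.9 CPM in the other 7. Its log2 fold change was -0.38 (SE 0.27, limma adjusted p = 0.769) over all libraries, -0.75 with the female Glut1-KO libraries alone and 0.21 among males. Wnt5a itself averaged 37.7 CPM in the female and 38.3 CPM in the male Glut1-KO libraries. How many of all genes had these females lowest, as Wnt7a did, was not counted. Within the Glut1-KO label, 20.3% of all genes tested had the females below the males without overlap.

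**Figure D2:**
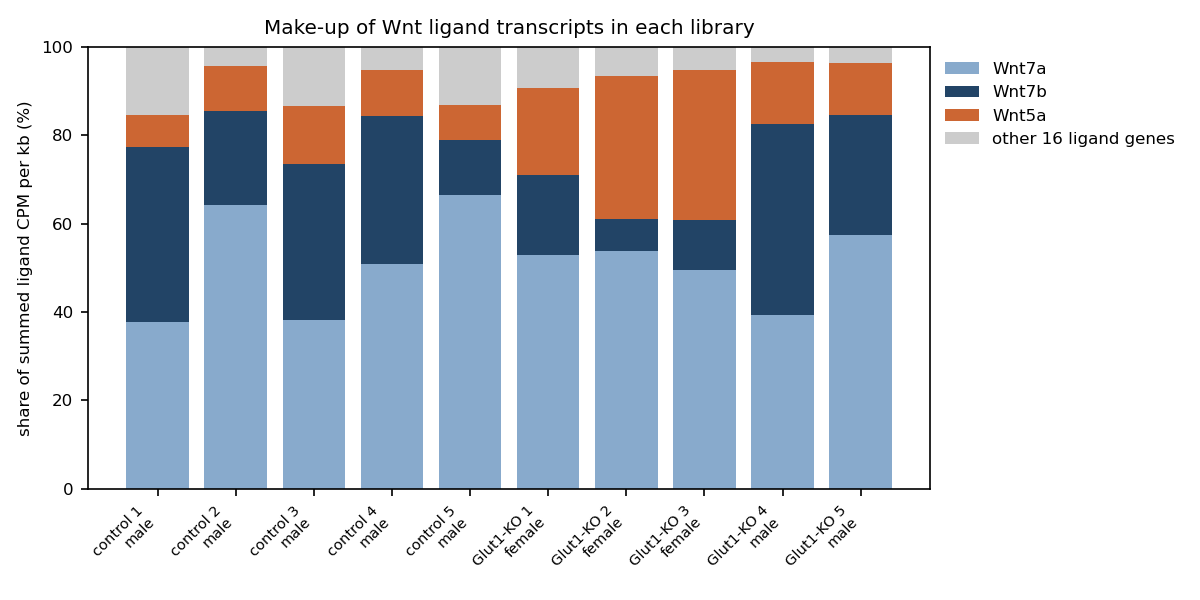
Share of each Wnt ligand in the summed CPM per kb of 19 ligand genes (vertical axis, percent), with 1 bar per library and colours for Wnt7a, Wnt7b, Wnt5a and the other 16 genes. Wnt5a takes 19.7% or more in the 3 female Glut1-KO libraries and 14.1% or less in the other 7.

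Porcn, the enzyme that adds the lipid to Wnt proteins (ENSMUSG00000031169, chrX:8193848-8206525, minus strand), stood at 78.1, 31.7, 99.0, 47.3 and 88.7 CPM in controls 1 to 5 and at 173, 150, 113, 43.4 and 36.5 CPM in Glut1-KO 1 to 5. The 3 female Glut1-KO libraries lay above all other libraries, and the 2 males were in the lower part of the control range. The log2 fold change was 0.45 (SE 0.48, 95% interval -0.62 to 1.52, limma adjusted p = 0.848, 2-sided exact permutation p = 0.46). It was 1.19 (SE 0.36, limma adjusted p = 0.253) with the female Glut1-KO libraries alone, and the males alone gave the opposite sign (-0.67, SE 0.46, limma adjusted p = 0.679). Porcn lies on the X chromosome and the controls held no female, so a difference by sex and a difference by label cannot be told apart for these 3 libraries. The share of all genes with these 3 libraries above all others was not counted. Within the Glut1-KO label, 20.6% of all genes tested had the females above the males without overlap.

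Notum, a secreted enzyme that removes the lipid and is itself a target of the pathway (ENSMUSG00000042988, chr11:120653788-120661175, minus strand), was low, with 14 to 155 counts per library. It stood at 1.77, 0.353, 3.36, 0.916 and 2.48 CPM in controls 1 to 5 and at 3.77, 1.81, 2.36, 0.460 and 0.317 CPM in Glut1-KO 1 to 5. The groups covered nearly one range, and the highest and the lowest library were both labelled Glut1-KO. On the log2 scale the difference was -0.14 (SE 0.79, 95% interval -1.88 to 1.6, limma adjusted p = 0.979, 2-sided exact permutation p = 0.817). The female Glut1-KO libraries alone gave 0.92 (SE 0.66, limma adjusted p = 0.549) and the males alone -1.78 (SE 1.08, limma adjusted p = 0.647).

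Lgr4, a receptor of the R-spondins that strengthens Wnt signals (ENSMUSG00000050199, chr2:109917647-110014257, plus strand), stood at 18.8, 7.46, 14.2, 9.79 and 6.17 CPM in controls 1 to 5 and at 6.89, 3.87, 2.90, 11.4 and 5.53 CPM in Glut1-KO 1 to 5. In Glut1-KO 2, 3 and 5 it lay below every control, and in the other two inside the control range. The means were 11.3 ± 5.19 and 6.11 ± 3.32 CPM (SD, n = 5 each). The log2 fold change was -0.93 (SE 0.40, 95% interval -1.82 to -0.04, limma adjusted p = 0.637, 2-sided exact permutation p = 0.0794). The sign was the same with the female Glut1-KO libraries alone (-1.26, SE 0.46, limma adjusted p = 0.305) and among males (-0.41, SE 0.52, limma adjusted p = 0.825).

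Lgr5, the related receptor known as a stem cell marker in the intestine (ENSMUSG00000020140, chr10:115450311-115587780, minus strand), was near the limit of these libraries. Its counts were 3, 19, 36, 10 and 5 in controls 1 to 5 and 4, 20, 22, 13 and 27 in Glut1-KO 1 to 5, which is 0.0759 to 0.889 CPM and 0.0974 to 0.611 CPM. The interval of the log2 fold change was wide, at 0.55 (SE 0.67, 95% interval -0.93 to 2.02, limma adjusted p = 0.867, 2-sided exact permutation p = 0.468). It was 0.25 (SE 0.83, limma adjusted p = 0.914) with the female Glut1-KO libraries alone and 1.01 (SE 0.81, limma adjusted p = 0.72) among males. Per kb of exon, Lgr4 was at least 10.2 times Lgr5 in every library, with a median ratio of 43.3.

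Ctnnb1, the gene of β-catenin (ENSMUSG00000006932, chr9:120929216-120960507, plus strand), was the most abundant and the steadiest member. It stood at 1430, 1190, 1310, 1680 and 1340 CPM in controls 1 to 5 and at 1120, 1110, 1220, 1750 and 1740 CPM in Glut1-KO 1 to 5. The lowest and the highest library differed by 1.57-fold, the narrowest range of the 10 members. On the log2 scale the difference was -0.02 (SE 0.17, 95% interval -0.40 to 0.35, limma adjusted p = 0.985, 2-sided exact permutation p = 0.913). Both male Glut1-KO libraries lay above every control, and the difference among males was 0.33 (SE 0.16, limma adjusted p = 0.569). Its 2-sided exact permutation p was 0.0476, the smallest that 5 against 2 libraries can give. These 2 libraries carried the same number in their deposited names, which may stand for a single mouse. The share of all genes without overlap in this comparison is not given here. With the female Glut1-KO libraries alone the value was -0.26 (SE 0.13, limma adjusted p = 0.413). Transcript levels do not measure the β-catenin protein, which the pathway controls by breakdown.

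Tcf7, which encodes the factor TCF1 and is also known from T cells (ENSMUSG00000000782, chr11:52252371-52283014, minus strand), was high in single controls. It stood at 10.2, 2.78, 10.9, 4.10 and 2.56 CPM in controls 1 to 5 and at 2.92, 2.95, 2.78, 3.86 and 2.76 CPM in Glut1-KO 1 to 5. Controls 1 and 3 stood apart from the other 8 libraries, which lay between 2.56 and 4.10 CPM. The log2 fold change was -0.71 (SE 0.44, 95% interval -1.69 to 0.27, limma adjusted p = 0.745, 2-sided exact permutation p = 0.238), with the same sign among males (-0.61, SE 0.72, limma adjusted p = 0.811) and with the female Glut1-KO libraries alone (-0.77, SE 0.57, limma adjusted p = 0.562). The summed level of 10 T cell genes was 1.65 to 3.82 CPM in controls and 3.68 to 5.4 CPM in libraries labelled Glut1-KO, with 7 of 10 genes higher on the mean in the latter, and was 1.65 CPM in control 1 and 2.91 CPM in control 3. The T cell receptor genes Cd3e, Cd3d and Cd3g were at or below 0.226 CPM in every library. The part of T cells in the Tcf7 values was not tested.

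Axin2, a part of the destruction complex and a feedback target (ENSMUSG00000000142, chr11:108920349-108950783, plus strand), whose promoter is shown above, stood at 1.82, 0.668, 3.38, 2.29 and 1.52 CPM in controls 1 to 5 and at 2.48, 3.02, 1.10, 0.675 and 1.52 CPM in Glut1-KO 1 to 5. Every library labelled Glut1-KO lay inside the control range. On the log2 scale the difference was -0.10 (SE 0.50, 95% interval -1.21 to 1.01, limma adjusted p = 0.976, 2-sided exact permutation p = 0.762). The sign was not stable, at 0.27 (SE 0.55) with the female Glut1-KO libraries alone and -0.66 (SE 0.70) among males, with limma adjusted p-values of 0.848 and 0.79.

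Nkd1, an inhibitor that binds Dishevelled and a second feedback target (ENSMUSG00000031661, chr8:88521354-88594884, plus strand), had the widest range of the members. It stood at 55.4, 6.53, 229, 33.2 and 49.8 CPM in controls 1 to 5 and at 96.9, 84.1, 50.4, 25.2 and 21.5 CPM in Glut1-KO 1 to 5. Both extremes were controls, control 3 at 229 CPM and control 2 at 6.53 CPM, which is 35-fold apart. The log2 fold change was 0.19 (SE 0.81, 95% interval -1.59 to 1.96, limma adjusted p = 0.971, 2-sided exact permutation p = 0.873). It had the opposite sign in edgeR (-0.43) and among males (-0.83, SE 1.28, limma adjusted p = 0.859), and was 0.85 (SE 0.91, limma adjusted p = 0.69) with the female Glut1-KO libraries alone. Axin2 and Nkd1, both read as feedback targets, thus gave no difference between the groups that exceeded the spread between libraries.

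**Figure D3:**
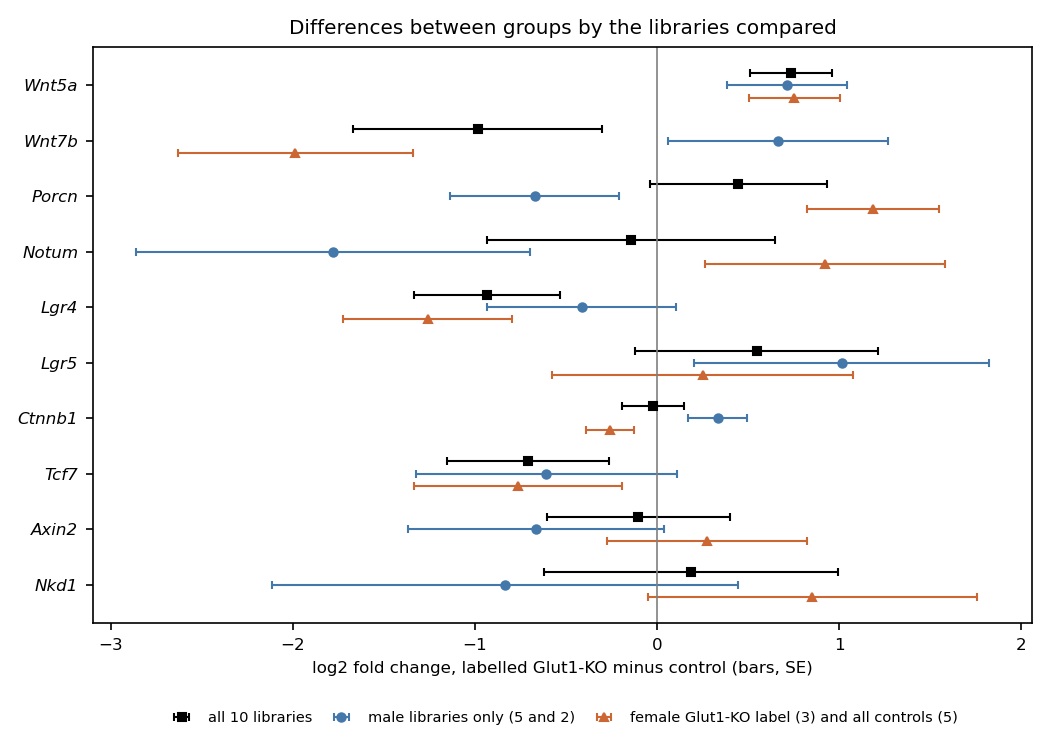
Log2 fold change of each Wnt pathway gene (horizontal axis, labelled Glut1-KO minus control) with its SE, over all 10 libraries (squares), the male libraries only (circles, 5 and 2) and the 3 female Glut1-KO libraries against all 5 controls (triangles). Wnt5a gives 0.74, 0.71 and 0.75, while Wnt7b, Porcn, Notum, Axin2, Nkd1 and Ctnnb1 have opposite signs between the circles and the triangles.

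The libraries labelled Glut1-KO were also compared among themselves. In 5 of the 10 members the 3 female and the 2 male libraries did not overlap, beside 40.8% of all genes tested. Porcn, Notum and Nkd1 were higher in the females, by 3.64-, 6.81- and 3.3-fold on the means, in a direction that 20.6% of all genes shared. Wnt7b and Ctnnb1 were higher in the males, by 6.21- and 1.51-fold (20.3% of all genes). The share of members was thus near that of all genes. The male libraries also differed from the female in Slc2a1 (97.6 and 45.8 CPM on average), in summed dissociation stress genes (2760 to 3190 against 4140 to 5010 CPM), in proliferation genes (176 to 193 against 268 to 303 CPM), in alveolar type 1 genes (1180 to 1710 against 1860 to 2350 CPM) and in epithelial genes (5710 to 8810 against 3310 to 4540 CPM). Both males carried 1 number in their deposited names, which may stand for 1 mouse. Sex, animal, the level of Slc2a1 and these gene groups cannot be told apart here.

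Per kb of exon, the members ran from Ctnnb1 at 268 ± 48.2 CPM per kb to Lgr5 at 0.0367 ± 0.0250 (SD, n = 10 libraries). Between them came Porcn (28.7), Nkd1 (14.3), Wnt7b (7.93), Wnt5a (3.92), Tcf7 (1.75), Lgr4 (1.48), Notum (0.731) and Axin2 (0.336). Ctnnb1 was above Porcn in 10 of 10 libraries, Axin2 above Lgr5 in 10, and Porcn above Nkd1 in 9. Nkd1 was above Wnt7b in 5 libraries and Tcf7 above Lgr4 in 5, so these neighbours did not differ beyond their spread. The remaining neighbours kept their order in 7 or 8 of 10 libraries. Of the 2 feedback targets, Nkd1 was thus far more abundant per length than Axin2.

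**Figure D4:**
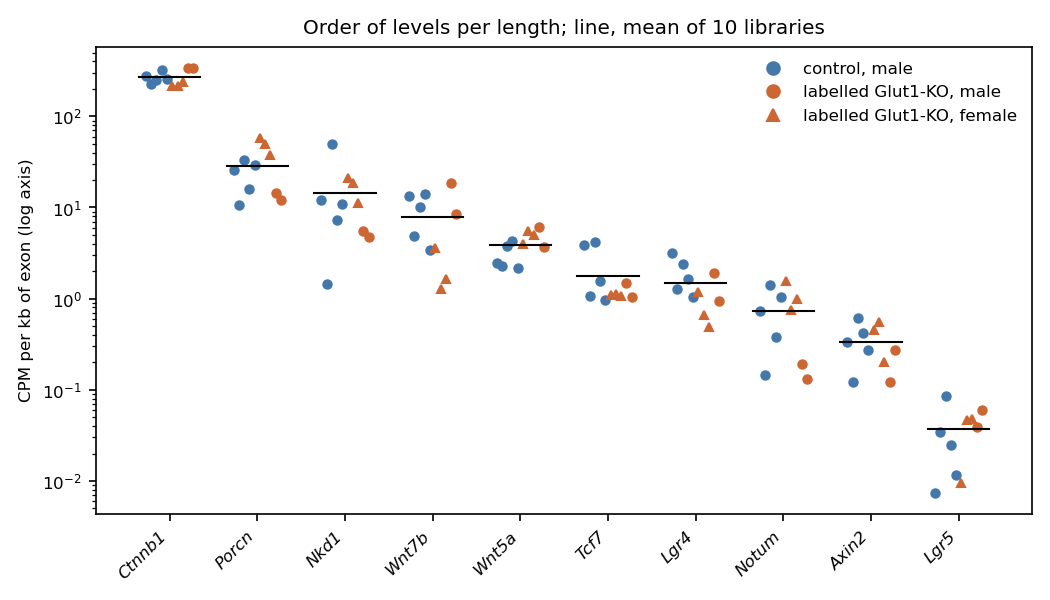
Levels of the Wnt pathway genes in CPM per kb of exon (log axis) in 10 libraries, ordered by their mean (lines). Ctnnb1 averages 268 CPM per kb and Lgr5 0.0367, and Nkd1 and Wnt7b, as well as Tcf7 and Lgr4, overlap over most of their range.

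Members were compared with each other and with Slc2a1 over the 10 libraries on the log2 CPM scale, which gave 55 pairs. By Pearson's r, 8 pairs had a Benjamini-Hochberg adjusted permutation p under 0.05, all of them positive, and 3 of these also by Spearman's rho. The libraries of a group are not all independent if those with the same name number came from 1 mouse, so r was also computed over the means of 6 name numbers. It lay between 0.77 and 0.96 for the 8 pairs. How often pairs drawn from all genes give such values was not tested.

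Of these pairs, 4 were among Notum, Nkd1, Porcn and Axin2. Notum and Porcn gave r = 0.91 (permutation p = 0.00035, adjusted 0.00917) and rho = 0.88 (permutation p = 0.00176, adjusted 0.0391). Without the 2 libraries farthest from the median of Notum r was 0.84, and among the 7 males 0.98. The enzyme that adds the lipid and the enzyme that removes it were thus high and low in the same libraries. Notum and Nkd1 gave r = 0.86 (permutation p = 0.00021, adjusted 0.00917), rho = 0.87 (permutation p = 0.00213, adjusted 0.0391), 0.79 without the 2 farthest libraries and 0.87 among males. Nkd1 and Porcn gave r = 0.82 (permutation p = 0.00231, adjusted 0.0212), rho = 0.88 (permutation p = 0.00139, adjusted 0.0391), 0.97 without the 2 farthest and 0.89 among males. Axin2 and Nkd1, the 2 feedback targets, gave r = 0.81 (permutation p = 0.00311, adjusted 0.0223), rho = 0.84 (permutation p = 0.00384, adjusted 0.0525), 0.68 without the 2 farthest and 0.82 among males. Axin2 gave r = 0.65 with Notum (adjusted permutation p = 0.184) and 0.63 with Porcn (adjusted permutation p = 0.207).

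The other 4 pairs were among Lgr4, Wnt7b, Slc2a1 and Tcf7. Wnt7b and Slc2a1 gave r = 0.90 (permutation p = 0.0005, adjusted 0.00917), rho = 0.83 (permutation p = 0.00477, adjusted 0.0525), 0.79 without the 2 farthest libraries and 0.73 among males. Lgr4 and Wnt7b gave r = 0.85 (permutation p = 0.00198, adjusted 0.0212), rho = 0.82 (permutation p = 0.00605, adjusted 0.0555), 0.82 without the 2 farthest and 0.65 among males. The female Glut1-KO libraries 2 and 3 were the lowest in both of these genes and in Slc2a1. Lgr4 and Slc2a1 gave r = 0.84 (permutation p = 0.0021, adjusted 0.0212), rho = 0.75 (permutation p = 0.0176, adjusted 0.121), 0.67 without the 2 farthest and 0.56 among males. Lgr4 and Tcf7 gave r = 0.80 (permutation p = 0.00325, adjusted 0.0223), rho = 0.71 (permutation p = 0.0268, adjusted 0.164), 0.77 without the 2 farthest and 0.91 among males. Tcf7 gave r = 0.56 with Wnt7b (adjusted permutation p = 0.282) and 0.50 with Slc2a1 (adjusted permutation p = 0.309). Both pairs with Slc2a1 thus had a lower r within the males than over all libraries, a difference that was not tested.

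**Figure D5:**
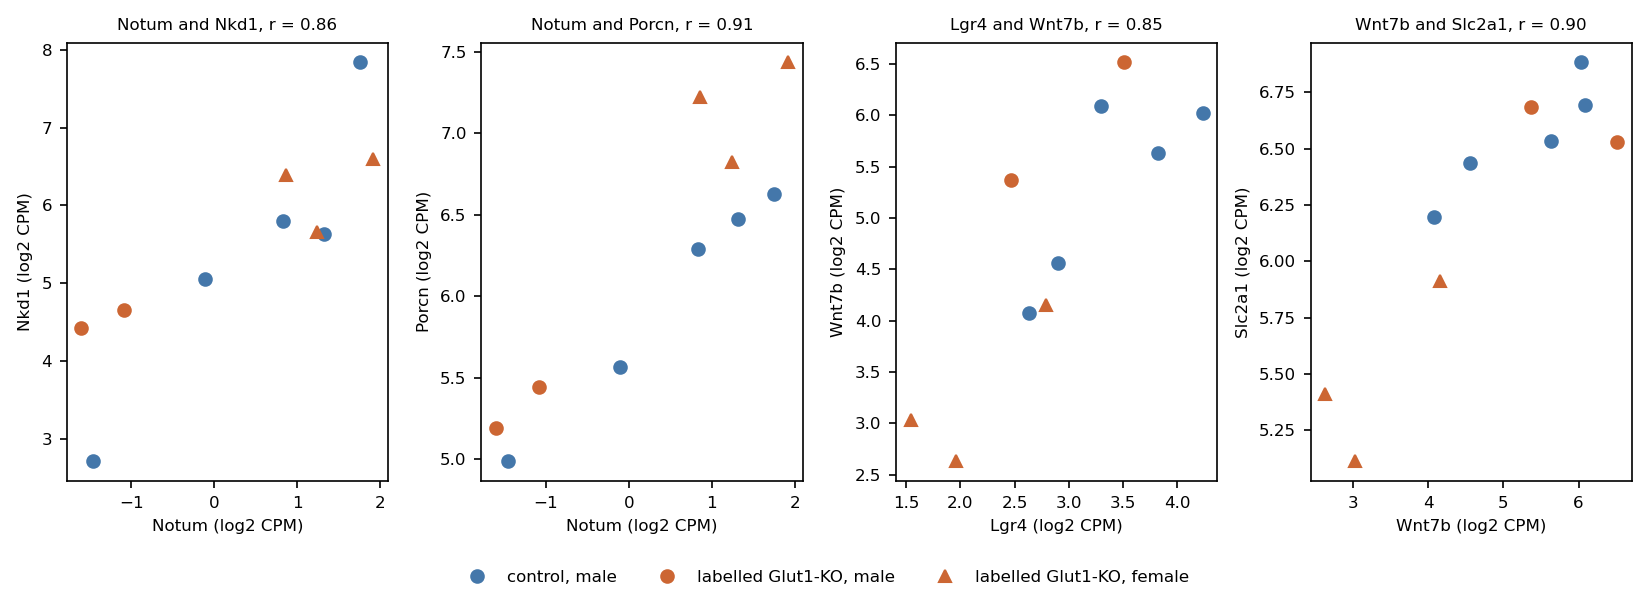
Levels (log2 CPM on both axes) of 4 pairs of genes in the 10 libraries, with Pearson's r above each panel. Notum rises with Nkd1 and Porcn across controls (blue) and libraries labelled Glut1-KO (orange), and the 3 female Glut1-KO libraries (triangles) lie at the low end of Wnt7b and Slc2a1.

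For Axin2, Wnt5a, Wnt7b and Tcf7 the 2 genes with the most similar pattern were sought among 13858 genes of at least 1 CPM on average, by Pearson's r over the 10 libraries, as a description. For Axin2 these were Socs3, an inhibitor of cytokine signalling (r = 0.97), and Rasgrp3, an exchange factor of Ras proteins (r = 0.94). For Wnt5a they were Mpeg1, a macrophage gene (5.57 to 18.3 CPM in controls and 9.87 to 41.3 CPM in libraries labelled Glut1-KO, r = 0.91), and Ccl9, a chemokine (r = 0.90). For Wnt7b they were Rin1, a regulator of Ras and Rab proteins (r = 0.98), and the processed pseudogene Gm6180 (r = 0.98). For Tcf7 they were the processed pseudogene Rpl5-ps1 (r = 0.96) and Ccbe1, known from lymphatic vessel growth (r = 0.95). Reads of a pseudogene can come from its parent gene, so these 2 are uncertain. Over so many genes, some high values occur in 10 libraries for any pattern.

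The pathway around the members was read from 7 lists with 86 further genes, of which 63 passed the filter on low counts. Of these 28 were higher and 35 lower by fitted log2 fold change, with a median of -0.05, and 0 passed the test. Unadjusted p-values under 0.05 were found for 5 (7.94%, beside 7.68% of all genes tested), and 1 (1.59%, beside 1.85%) did not overlap between the groups. The count of 5 was 2 of 64 without Glut1-KO 2 (1030 of 16106 genes in all), 3 of 64 without Glut1-KO 3 (896 of 16121) and 9 of 64 without control 2 (1436 of 16101). It was 9 with the replicate block (1156 of 15922 genes in all), 10 in edgeR (1409) and 14 in DESeq2 (1715), and 2 of 66 among males (1556 of 16762) and 11 of 65 with the female Glut1-KO libraries alone (2260 of 16430). With the female Glut1-KO libraries alone 29 were higher and 34 lower, among males 25 and 38, and 0 passed in either. In the lists below 4 genes stand in 2 lists each, among them Znrf3 and Rnf43, so the lists hold 67 tested entries for the 63 genes.

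Members were not counted in these lists, so Wnt5a and Porcn (both higher) and Wnt7b (lower) are left out here. Among ligands and their secretion, 1 of 7 tested genes was higher. This was Wls, the carrier that takes Wnt proteins to the cell surface, which was also the most abundant of the list per kb, at 373 ± 48.8 CPM in controls and 465 ± 39.8 CPM in libraries labelled Glut1-KO (SD, n = 5 each, log2 fold change 0.32, SE 0.12, limma adjusted p = 0.559). Of 13 Frizzled receptors and co-receptors, 9 were higher and 4 lower. Fzd3 gave 2.22 ± 0.919 and 0.964 ± 0.496 CPM (log2 fold change -1.20, SE 0.42, limma adjusted p = 0.531), and Fzd7, the most abundant of the list per kb of exon, 0.40 (SE 0.30, limma adjusted p = 0.773). Both are receptors for Wnt ligands at the cell surface. Wls was at 0.34, Fzd3 at -1.18 and Fzd7 at 0.77 with the female Glut1-KO libraries alone, and among males at 0.31, -1.21 and -0.15.

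Of the list of R-spondins and their partners 3 genes were tested, and all 3 were lower. These were Lgr6, Rnf43 and Znrf3, and no R-spondin gene passed the filter on low counts. Znrf3, a ligase that removes Frizzled receptors, stood at 16.5, 15.4, 16, 15.6 and 16.2 CPM in controls 1 to 5 and at 15, 11.7, 14.2, 12.1 and 12.2 CPM in Glut1-KO 1 to 5. It was the 1 gene of the 63 whose groups did not overlap, lower in all 5 libraries labelled Glut1-KO, as were 1.06% of all genes tested. Its log2 fold change was -0.29 (SE 0.12, limma adjusted p = 0.621, 2-sided exact permutation p = 0.00794, the smallest that 5 against 5 can give). The related ligase Rnf43 gave -0.12 (SE 0.10, limma adjusted p = 0.789). Among 9 antagonists, some secreted and some at the cell surface, 3 were higher and 6 lower. Of these, Dkk3 was at -0.83 (SE 0.48, limma adjusted p = 0.723) and Kremen1, a receptor of Dkk proteins, at -0.10 (SE 0.22, limma adjusted p = 0.929). Znrf3, Rnf43, Dkk3 and Kremen1 were at -0.22, -0.12, -0.94 and -0.15 with the female Glut1-KO libraries alone, and among males at -0.39, -0.12, -0.66 and -0.01.

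Of 13 genes of the destruction complex and Dishevelled, 7 were higher and 6 lower. Dvl1, which passes the signal on from Frizzled, gave 95.4 ± 15.8 and 68.2 ± 20.6 CPM (log2 fold change -0.53, SE 0.21, limma adjusted p = 0.607), and the kinase gene Csnk1a1 0.16 (SE 0.15, limma adjusted p = 0.828). The 12 nuclear factors split evenly, with 6 higher and 6 lower, and Pygo2 gave 0.03 (SE 0.10) and the co-repressor Tle1 -0.36 (SE 0.20, limma adjusted p = 0.71). Of 10 target genes 3 were higher and 7 lower. Myc gave 65.6 ± 11.9 and 46.8 ± 16 CPM (log2 fold change -0.53, SE 0.22, limma adjusted p = 0.616), and Ccnd1, the gene of cyclin D1 and the most abundant of this list per kb, 0.20 (SE 0.23, limma adjusted p = 0.856). With the female Glut1-KO libraries alone Dvl1 was at -0.68, Csnk1a1 at 0.11, Pygo2 at 0.04, Tle1 at -0.29, Myc at -0.85 and Ccnd1 at -0.02, and among males at -0.28, 0.22, 0.02, -0.47, -0.04 and 0.53. Direction over all libraries was thus mixed in the lists other than that of the R-spondins, and no list held a gene that passed the test. With the members, the R-spondin receptors were mixed too, with Lgr4 at -0.93 and Lgr5 at 0.55.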

How the data were processed

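Stranded mRNA libraries were read from one end by the authors, who trimmed the reads with Cutadapt and mapped them with HISAT2 to mm10. The submitters' processing notes also name featureCounts 1.4.4 and edgeR, and give the Cutadapt version as 1.4.2, where the study's methods state a different one. The strand setting and annotation release of the counting are not given in the sources used here. The deposited values used are raw read counts per gene, without normalization, and the 10 single tables equalled the combined one. A deposited table of log2 values was not used. Precision was set by 35.3 to 49.8 M counts per library and 5 libraries per group.

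Genes were kept by filterByExpr of edgeR 4.0.16 (minimum count 10, minimum total 15), which left 15922, scaled by TMM, and fitted with voom (prior count 0.5) and limma 3.58.1 in R 4.3.3 with the group as the only term. Adjustment of p-values was by Benjamini-Hochberg over these genes (threshold 0.05). Single values also had a 2-sided exact permutation test over 252 assignments of the libraries (21 for males), for which the smallest p is 0.00794 (0.0476 for males). Correlations used 100000 permutations. Levels are TMM-scaled CPM, and per-length values used exons of GENCODE release M21 (GRCm38), in which 96.4% of gene identifiers were found. No label says that libraries came from separate mice, and control libraries carried 2 name numbers and the others 4, so p-values measure the spread between libraries only. Replicate numbers were not taken as pairs. The script was tested on simulated data.

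Named were all 10 members, Slc2a1, and of each of 7 pathway lists the gene with the highest mean CPM per kb and the tested gene with the smallest p, and for Axin2, Lgr5, Wnt5a, Wnt7b and Tcf7 the 2 genes of most similar pattern (those of Lgr5 are not reported here). Wnt7a and single marker genes were named after their values were seen. The members, lists and tests were chosen with earlier results of these data known. Alternatives were other filters, scalings and tests (DESeq2 1.42.0 among them), sex as a covariate, subsets by sex, sums by name number, blocks, and each library left out.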

Additional observations from a re-analysis of the deposited data

Results flagged for a closer look

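The highest or lowest library of each group of 5 was compared with the rest for 24 groups of values by Dixon's gap ratio, and 3 passed the 95% limit of 0.71. Chance alone passes it in about 1 in 20 groups if the values follow a normal distribution, which CPM on a linear scale need not do. Nkd1 stood at 229 CPM in control 3 against 6.53 to 55.4 CPM in the other controls (ratio 0.78). On the log2 CPM scale control 3 was at 7.84 and the other controls at 2.71 to 5.79, for which the ratio was not computed. Tcf7 stood at 3.86 CPM in Glut1-KO 4, with the 4 other libraries of that label at 2.76 to 2.95 CPM (ratio 0.832), a gap that is small beside the spread of the controls. Control 2 had 49.8 M counts against 40.1 to 41.4 M in the other controls (ratio 0.863).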

How the results depend on the processing

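Under each of the 22 alternatives 0 members and 0 of the further Wnt genes passed the threshold, including the fit with the replicate block (0 genes of all tested). Control and Glut1-KO libraries with the same replicate number did not deviate together (correlations -0.13 to 0.20, 1 of 5 controls closest to its own number). These values do not concern the name numbers. The count over all genes moved from 0 to 215 in DESeq2, 3 with sex as a covariate, 1 in males, 9 with the female Glut1-KO libraries alone and 2 after summing by name number, and lay between 0 and 1 when single libraries were left out (1 without control 3). The cause was not tested.

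Signs that turned were all of values that did not pass the test. With sex as a covariate Nkd1 was at -0.83, Wnt7b at 0.67, Porcn at -0.67, Ctnnb1 at 0.34 and Slc2a1 at 0.061. In males alone these were -0.83, 0.67, -0.67, 0.33 and 0.06. With the female Glut1-KO libraries alone Axin2 was at 0.27 and Notum at 0.92. Nkd1 was at -0.43 in edgeR, -0.42 in DESeq2 and -0.28 after summing, and Ctnnb1 at 0.004 in DESeq2. Other values moved with the sign kept. Wnt7b was at -0.44 in edgeR and -0.43 in DESeq2, and Notum at -0.02 in both. Lgr5 was at 0.29 and 0.30 in these tests and at 0.16 after summing. Leaving out single libraries moved Axin2 between -0.46 and 0.17, Notum between -0.66 and 0.37, Nkd1 between -0.53 and 0.82 and Ctnnb1 between -0.12 and 0.05. Without changing sign, Tcf7 moved between -0.95 and -0.43, weakest without controls 1 and 3, Wnt7b between -1.46 and -0.55, weakest without Glut1-KO 2, Porcn between 0.19 and 0.76, weakest without control 2, Lgr5 between 0.18 and 0.99, weakest without control 1, Lgr4 between -1.17 and -0.70, and Wnt5a between 0.64 and 0.88. A minimum of 1 CPM removes Lgr5. Lgr5 had 3 to 36 counts per library, and the effect of depth was not tested.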
